A study of Mus musculus with 12 samples.

Results

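The probe sets of mouse chromosome 11, the chromosome that carries *Krt19* and with it the Cre allele of the mutant mice, were compared between *Glut1* conditional mutant and control nucleus pulposus (NP). Members were chosen by the chromosome code that opens each identifier, here TC11, which 1629 of 22206 probe sets carry. The probe sets of *Xaf1*, *Pttg1* and *Gemin5* were set aside, leaving 1626 members. The authors had called these on the same arrays at a 2-fold difference and an unadjusted p under 0.05. The other 18 autosomes hold 19275 probe sets and serve as the background. Apart from these 3, no measured value entered the choice of members.

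RNA came from the NP of 6 K19Cre; GLUT1f/f mice (cKO) and 6 Glut1f/f littermates without Cre (WT), all 9 months old. Mice of both genotypes carried the floxed *Glut1* alleles and had received tamoxifen at 3 months of age, 100 µg per g body weight on each of 3 days. The NP of the lumbar and caudal discs of 1 mouse was pooled and hybridized to 1 Clariom S array, so the replicate is the mouse. Cre is fused to the estrogen receptor and expressed from the *Krt19* gene, so *Glut1* is deleted only in cells in which *Krt19* was active when tamoxifen was given. WT mice lacked the Cre allele altogether, so the presence of that allele and of the DNA inherited with it cannot be told apart from the loss of *Glut1* at any chromosome 11 probe set.

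*Krt19* encodes a type I keratin, an intermediate filament protein that marks NP cells and their notochordal ancestors, and it lies in the type I keratin gene cluster. An allele made by gene targeting is passed on together with its neighbours on the chromosome, and for this reason genes next to such an allele can differ in sequence between carriers and non-carriers even among littermates. Chromosome 11 also holds genes of importance to the disc and the tissues around it, among them *Sox9*, a transcription factor of cartilage and the disc, *Col1a1*, a fibrillar collagen of the annulus fibrosus and bone, and the skeletal muscle myosin heavy chains. The tables used here pair no gene name with any member, so members are given by identifier, the values of these genes were not analysed, and the labelled tissue could not be checked against its markers. No sequence is printed for the same reason.

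*Slc2a1*, the gene encoding GLUT1, was lower in cKO. Its log2 values were 18.10, 17.76, 18.31, 17.77, 17.93 and 17.95 in the 6 cKO mice, against 19.09, 18.86, 19.23, 19.23, 19.24 and 19.31 in the 6 WT mice. The genotypes did not overlap. The log2 fold change, cKO minus WT throughout, was -1.19 (SE 0.13), or 56.2% lower on the linear scale, with an adjusted p of 0.00327 from limma's moderated test with Benjamini-Hochberg adjustment over all probe sets. In bulk tissue, fewer cells of a type and less RNA per cell cannot be told apart. It was the only probe set of the array at an adjusted p under 0.05, a share of 0.0045% (0.00519% of the other 18 autosomes). Array medians lay between 6.56 and 6.62 in cKO and between 6.55 and 6.66 in WT, and mean signal over the Y-coded probe sets was high in 3 cKO and 4 WT arrays and low in the others.

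No chromosome 11 member reached an adjusted p under 0.05 with limma. At an unadjusted p under 0.05, 85 of the 1626 members were called (5.23%), beside 5.25% on the other autosomes and 5.18% of all probe sets. Of these, 43 were higher in cKO (2.64%, beside 2.42% on the other autosomes and 2.43% of all probe sets) and 42 were lower (2.58%, beside 2.83% and 2.76%). The share on chromosome 11 was thus close to the background in both directions. Among the 19 autosomes it ranked 9, and the other 18 ran between 4.00% on chromosome 18 and 7.32% on chromosome 13. The 3 probe sets set aside had been called by the authors at an unadjusted p under 0.05, so their absence can lower this share and rank.

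**Figure D1:**
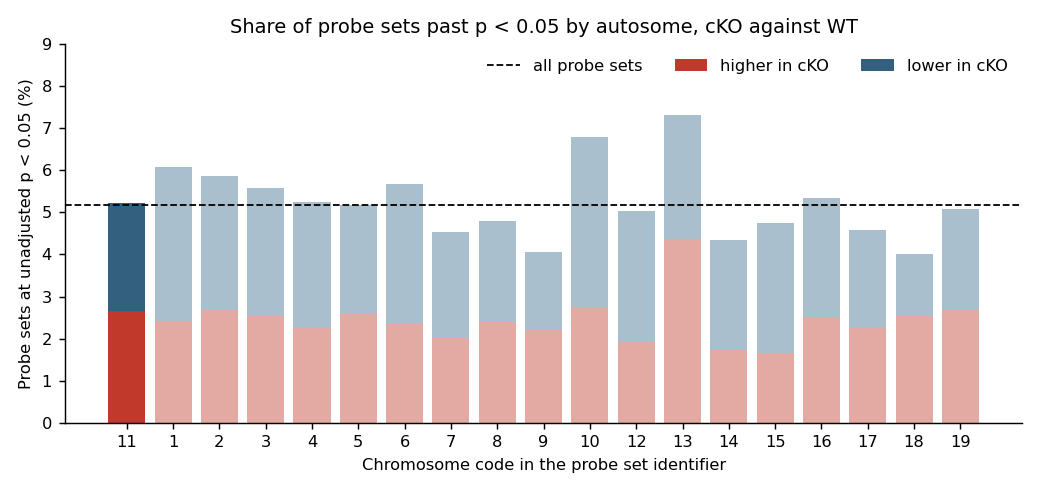
Bars give the percentage of probe sets at an unadjusted p under 0.05 on each autosome, parted into those higher and those lower in cKO; the dashed line is the share over all probe sets. Chromosome 11, drawn first in full colour, stands at 5.23% beside the line at 5.18%.

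Differences on chromosome 11 were small. The median log2 fold change over the members was -0.01 (0.015 with each array centred on its median), within the range of the other autosomes, which lay between -0.03 on chromosome 14 and 0.02 on chromosome 12. The median of its absolute value was 0.12 on chromosome 11 and had a median of 0.12 over the other autosomes. The 95% interval of the difference excluded a 2-fold change in either direction for 97.7% of members and a 1.5-fold change for 71.9%, against 96.1% to 98.2% and 62.8% to 74.7% on the other autosomes. No member combined an unadjusted p under 0.05 with a 2-fold difference, which 0.119% of probe sets on the other autosomes and 0.113% of all probe sets did. This 0 follows in part from the choice of members. The 3 probe sets set aside had been called by the authors at these thresholds, while none was set aside on the other autosomes. With a 1.5-fold difference, 11 members were called (0.677%, beside 0.82% on the other autosomes and 0.802% of all probe sets), those 3 being again left out. Of these 11, 7 were higher in cKO (0.431%, beside 0.405% and 0.405%) and 4 were lower (0.246%, beside 0.415% and 0.396%).

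The mean over all members was likewise similar in the genotypes. It was 7.586, 7.601, 7.571, 7.576, 7.552 and 7.536 in cKO mice 1 to 6, against 7.582, 7.642, 7.567, 7.568, 7.551 and 7.553 in WT mice 1 to 6, so the genotypes overlapped throughout. Set against the other autosomes of the same array, the chromosome 11 mean stood 0.160 ± 0.022 higher in cKO and 0.163 ± 0.019 higher in WT (SD, n = 6 each).

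Values varied less among cKO than among WT mice, on chromosome 11 as elsewhere. The mean variance of a member was 0.0804 within cKO and 0.144 within WT, a ratio of 0.558. It was larger within WT for 69.3% of members. The same ratio lay between 0.545 and 0.811 on the other autosomes, and on chromosome 11 it was 0.664 without WT mouse 3.

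Brighter members were called somewhat more often than dim ones. The members and the probe sets of the other autosomes were together parted into 3 classes of equal size by mean log2 value, at 5.38 and 8.41. At an unadjusted p under 0.05 were 4.09% of 514 members in the dim class, 4.82% of 539 in the middle class and 6.63% of 573 in the bright class. On the other autosomes these shares were 4.62%, 5.46% and 5.68%. The median log2 fold change also moved with level, being -0.05, -0.03 and 0.04 in these classes on chromosome 11 and -0.05, -0.01 and 0.05 on the other autosomes.

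The genotypes did not overlap at 8 members (0.492%, beside 0.265% on the other autosomes and 0.275% of all probe sets), 4 higher in cKO (0.246%, beside 0.145% and 0.149%) and 4 lower (0.246%, beside 0.119% and 0.126%). This share ranked 3 among the 19 autosomes, whose others ran between 0% and 0.593%. The 3 probe sets set aside are not in this count either. The 8 members were spread along identifier order, in 8 different windows of consecutive identifiers, which does not give their distance on the chromosome. Their log2 fold changes lay between 0.28 and 0.55 for those higher in cKO and between -0.85 and -0.32 for those lower. Their levels covered nearly the whole range of the array, the dimmest having a mean log2 value of 4.12 and the brightest 17.69.

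**Figure D2:**
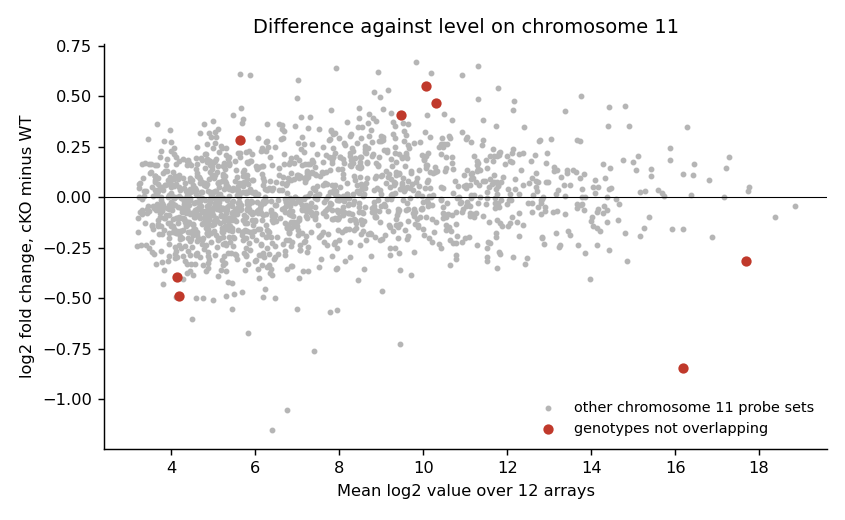
Each point is 1 of the 1626 members, with its mean log2 value over 12 arrays on the horizontal axis and its log2 fold change, cKO minus WT, on the vertical axis; red points are the 8 members whose genotypes did not overlap. One of them, at a level of 16.19 and a log2 fold change of -0.85, stands apart from the other bright members.

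The member of smallest p was TC1100003758. Its log2 values were 15.89, 15.80, 15.77, 16.10, 15.70 and 15.35 in cKO mice 1 to 6, against 16.84, 16.81, 16.53, 16.35, 16.75 and 16.41 in WT mice 1 to 6. Every cKO mouse lay below every WT mouse, with cKO 4 and WT 4 nearest to each other. The means were 15.77 ± 0.25 in cKO and 16.62 ± 0.21 in WT (SD, n = 6 each), a log2 fold change of -0.85 (SE 0.15, 95% interval -1.16 to -0.54), or 44.4% lower in cKO on the linear scale (31.1% to 55.1%). Its unadjusted p of 3.04e-05 in limma's fit was the third smallest of the 22206 probe sets, but its adjusted p was 0.225, so it did not pass the test. The next smallest adjusted p of a member was 0.929.

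TC1100003758 was also among the brightest probe sets of the array. Only 14 members and 184 of all probe sets had a higher mean. Of the 65 members with a mean log2 value over 14, 3 were at an unadjusted p under 0.05 (4.62%, against 5.38% of 651 such probe sets on the other autosomes), and the next largest absolute log2 fold change among them was 0.45. On the other autosomes, 4 such probe sets differed by at least as much, *Slc2a1* among them. The difference was -0.81 in arrays of high and -0.86 in arrays of low Y-coded signal. The sources used here do not say which transcript this probe set measures.

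**Figure D3:**
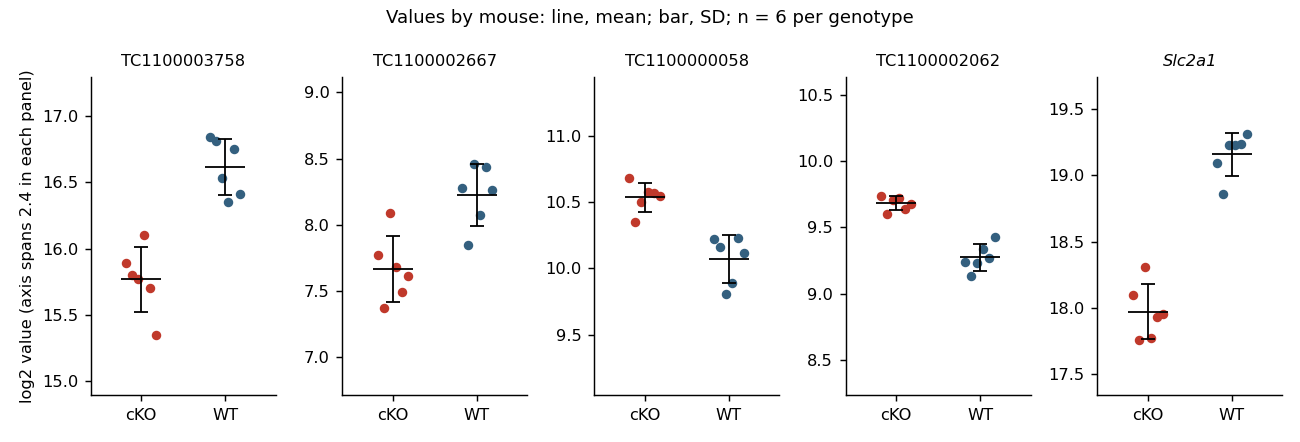
Points are the log2 values of single mice, cKO in red and WT in blue, for the 2 members of smallest p lower in cKO, the 2 of smallest p higher in cKO, and *Slc2a1*; lines are means and bars SD (n = 6 per genotype), and all vertical axes span the same number of log2 units. The genotypes overlap only for TC1100002667.

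The second member lower in cKO, TC1100002667, had a smaller difference. Its log2 values were 7.77, 7.37, 8.09, 7.68, 7.49 and 7.61 in cKO mice, against 8.28, 7.85, 8.46, 8.07, 8.44 and 8.26 in WT mice. The genotypes overlapped, cKO 3 lying above WT 2 and WT 4. The log2 fold change was -0.56 (SE 0.15), with an adjusted p of 0.929 from limma.

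Both members of smallest p on the higher side separated the genotypes without passing the test. TC1100000058 had log2 values of 10.68, 10.35, 10.50, 10.58, 10.57 and 10.55 in cKO mice, against 10.22, 10.16, 9.81, 9.89, 10.23 and 10.12 in WT mice. The lowest cKO mouse lay above the highest WT mouse by less than the widest gap within either genotype. Its log2 fold change was 0.47 (SE 0.12), with an adjusted p of 0.929 from limma. TC1100002062 had log2 values of 9.74, 9.60, 9.71, 9.72, 9.64 and 9.68 in cKO mice, against 9.24, 9.13, 9.23, 9.34, 9.27 and 9.43 in WT mice. The cKO mice were close together and all above WT. Its log2 fold change was 0.41 (SE 0.10), with an adjusted p of 0.929.

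The members of largest fold change were not those of smallest p. Only 2 members differed by 2-fold or more, both lower in cKO and neither past an unadjusted p of 0.05. The more extreme had log2 values of 5.73, 5.36, 6.51, 5.64, 6.69 and 4.92 in cKO mice, against 11.42, 7.66, 4.86, 5.30, 5.33 and 7.21 in WT mice. Its log2 fold change of -1.16 (95% interval -2.96 to 0.65) rested on WT mouse 1, which stood far above every other mouse, while the remaining WT mice overlapped with cKO. The member with the highest log2 fold change, 0.67 (95% interval -0.10 to 1.44), had values of 10.30, 9.79, 9.97, 10.97, 10.02 and 9.84 in cKO mice, against 10.73, 10.20, 8.11, 8.87, 9.85 and 9.12 in WT mice, and the genotypes overlapped there too. One pair of members held identical values on all 12 arrays, so these 2 are not separate measurements.

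Identifier order was next set against position. In the authors' table, 37 probe sets have 1 gene symbol, of which 33 matched a gene on an autosome of the RefSeq table (GRCm38.p6), and for all 33 the code in the identifier equalled the chromosome. Strand was at hand for 28. All 9 possible pairs of named genes on the same strand of a chromosome had identifiers in the order of their coordinates. In all 13 pairs of opposite strand the plus-strand gene had the lower number. A gene can enter several pairs, so these are not separate checks. Numbers thus ran along the plus strand first and along the minus strand after it. An exception was *Atp5d*, a subunit of ATP synthase, whose number 3218 lay near the last of chromosome 10, 3231, so the last numbers of a chromosome need not follow this order.

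On chromosome 11 the 3 genes set aside gave fixed points. *Xaf1* (plus strand, 72301461 to 72313733) has number 989, *Pttg1* (minus strand, 43420244 to 43427463) has 2567 and *Gemin5* (minus strand, 58120001 to 58168554) has 2813. *Krt19* lies at 100140810 to 100145926, and is a minus-strand gene from general knowledge, since the promoter table used for strands holds no entry for it. Between *Gemin5* and *Krt19* lie 326 minus-strand protein-coding genes of known strand. This list is incomplete, since 1271 of the 1609 protein-coding genes on chromosome 11 had a known strand. Spacings ran between named genes of the same strand, or from the chromosome start. With 0.961 to 1.39 probe sets per gene so counted (median 1.14) over 15 spacings, *Krt19* was placed at number 3719, with a range of 3612 to 3841. The spacing that ends at *Atp5d*, 4.71, was left out of this range. This stretch was worked out after the values had been seen and rests on gene spacing alone.

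The stretch of 3612 to 3841 holds 140 members. Of these, 5 were at an unadjusted p under 0.05 (3.57%, against 5.38% of the 1486 members outside it and 5.18% of all probe sets), 2 higher and 3 lower in cKO. The genotypes did not overlap at 1 of the 140 members, TC1100003758, and at 7 of the 1486 outside. The share was 0.492% over all members and 0.275% over all probe sets. Calls at an unadjusted p under 0.05 were therefore not more frequent in the stretch than among the other members. For non-overlap, 1 member in the stretch is too few to compare. Since numbers ran along the plus strand first, the stretch is estimated to hold minus-strand genes only. Plus-strand genes beside *Krt19* are counted outside it, so this comparison cannot show whether calls gather at the locus. The median log2 fold change was -0.08 in the stretch and -0.01 outside it.

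**Figure D4:**
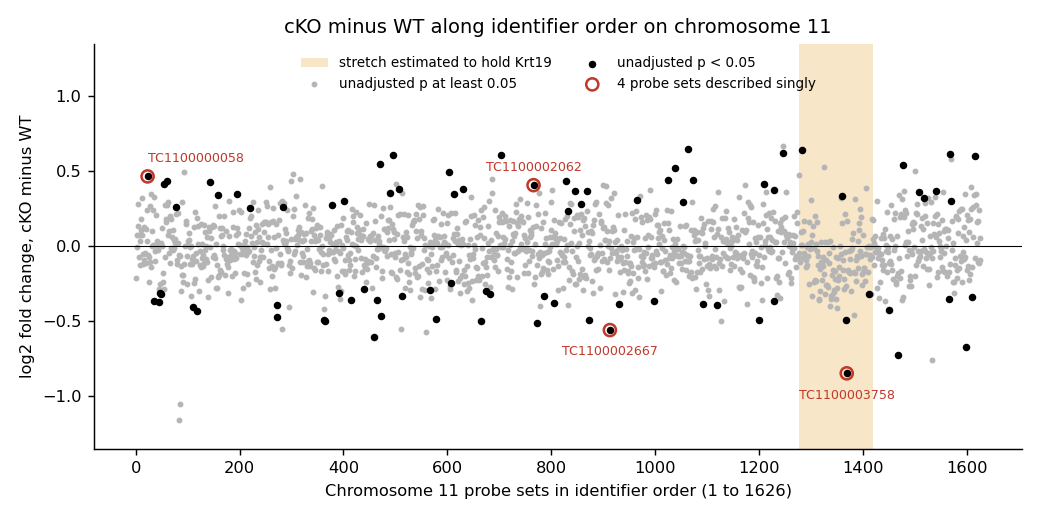
Each point is a member, placed by its rank in identifier order from 1 to 1626, with its log2 fold change, cKO minus WT, on the vertical axis; black points are at an unadjusted p under 0.05, circles mark the 4 members described singly, and the shaded band is the stretch estimated to hold *Krt19*. TC1100003758, at -0.85, lies inside the band, and black points are found along the whole identifier order.

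In windows of 100 consecutive members (the last of 126), the share at an unadjusted p under 0.05 lay between 2% and 9% in the 16 windows of chromosome 11, inside the 0% to 14% of the 191 windows on the other autosomes. The median log2 fold change ran from -0.13 to 0.04 on chromosome 11, against -0.10 to 0.08 on the others. The lowest of all 207 windows was window 14 of chromosome 11, which covers the numbers 3664 to 3807 and holds TC1100003758. In it 75 of 100 members lay below 0, and 3 were at an unadjusted p under 0.05, 2 of them lower in cKO. Over all members, 46.4% lay above 0 and 5.23% were at an unadjusted p under 0.05, beside 5.18% of all probe sets. Window 16 had the highest median of the chromosome, 0.04, and also its highest median level, 8.19 against 6.21 in window 14.

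The low median of window 14 came from many small differences. Within each array, the median of its 100 members stood at -0.495, -0.200, -0.320, -0.585, -0.370 and -0.295 log2 units from the median of the other autosomes in cKO mice 1 to 6, against -0.335, -0.455, 0.240, -0.130, -0.145 and -0.130 in WT mice 1 to 6. The genotypes overlapped, WT 1 and WT 2 lying among the cKO mice, and WT 3 stood highest. Without WT 3 the window's median was -0.09, second lowest of the 207. Of its members, 37 were in the dim class, with a median of -0.16, and the 63 others had a median of -0.08. With dim probe sets left out (not above the 30th percentile on at least 6 arrays), 71 of the window's 100 members were kept, 50 of them below 0, with a median of -0.10. When windows were drawn anew without the dim probe sets, the lowest of chromosome 11 had a median of -0.07, and with all members in windows of 200 it was -0.05.

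**Figure D5:**
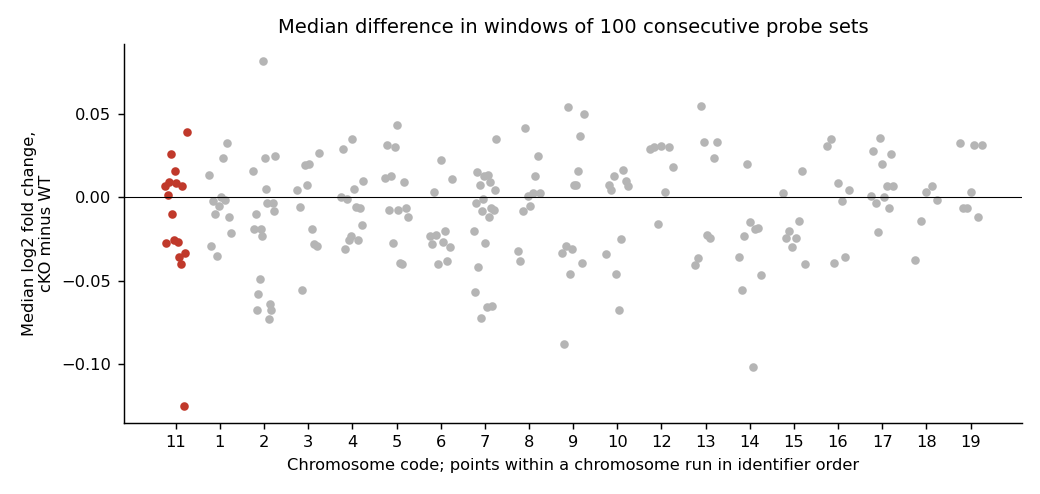
Each point is a window of 100 consecutive probe sets in identifier order (the last of a chromosome can be longer or shorter), with its median log2 fold change, cKO minus WT, on the vertical axis; chromosome 11 is drawn first, in red. Its window 14, at -0.13, is the lowest of the 207, and the other 15 lie within the range of the remaining autosomes.

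Both immediate neighbours of TC1100003758 were far less bright, with mean log2 values of 6.18 before it and 5.25 after it. The one before it in identifier order had log2 values of 6.24, 5.86, 6.04, 5.50, 5.90 and 6.05 in cKO mice, against 6.40, 6.10, 6.20, 6.48, 7.06 and 6.31 in WT mice, and the genotypes overlapped, cKO 1 lying above WT 2 and WT 3. Its log2 fold change was -0.49 (SE 0.17), with an adjusted p of 0.929 from limma. The one after it had a log2 fold change of 0.17 (SE 0.20). Of the 20 nearest members, 10 on each side, 15 were lower in mean in cKO and 5 were not, 2 were at an unadjusted p under 0.05, 1 of them lower, and the genotypes overlapped at all 20. Their median log2 fold change was -0.12 at a median level of 5.31. Over all members, 46.4% had a log2 fold change above 0, 5.23% were at an unadjusted p under 0.05 and 0.492% separated the genotypes. The last 2 of these shares were 5.18% and 0.275% over all probe sets. Of the 100 nearest, 76 were lower in mean, 3 were at an unadjusted p under 0.05 and none separated the genotypes. The difference at TC1100003758 was thus not shared in size by any of the 100 members nearest in identifier order. Their log2 fold changes lay between -0.49 and 0.53. Since numbers ran along the strands in turn, genes of the other strand at the same place would not be among these 100. Correlation between the log2 fold changes of adjacent members over the chromosome was 0.05 across 1626 members, against -0.02 to 0.15 on the other autosomes; adjacent members share the arrays and can share a level of brightness.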

How the data were processed

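NP RNA of 6 cKO and 6 WT mice was measured on 1 Clariom S array per mouse. SST-RMA normalization over all arrays was done by the authors, and the deposited log2 values of 22206 probe sets were used as they stand; the submitters' processing notes name Affymetrix Expression Console. The deposited tables of calls also hold the authors' own fold changes and p-values, which were not used; only their identifiers and gene symbols were. Every probe set was fitted in R 4.3.3 with lmFit and eBayes of limma 3.58.1, cKO against WT without covariates or a filter, with Benjamini-Hochberg adjustment over all probe sets, after a test on simulated data. The 12 arrays limit the precision. Chromosomes and windows were described by counts and medians, with no test over the members. Members to be named were, since no table used here names them, the 2 of smallest p on either side, with *Slc2a1* in every array first; planned gene and marker lists were therefore not used. Members were taken by chromosome code, but this rule and the lists were set with earlier results of these data known. Alternatives were quantile normalization, median centring, leaving out dim probe sets (those not above the 30th percentile on at least 6 arrays), a trended and robust eBayes, weights for the arrays, replicate number or Y-coded signal as a block, adjustment without probe sets of an X or Y code, other window sizes, a 1.5-fold threshold, the median per array and leaving out each array.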

Additional observations from a re-analysis of the deposited data

Results flagged for a closer look

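Of 16 groups of 6 values examined, 1 held a value set apart from the others of its genotype, and chance alone gives about 1 such group in 20. The mean over the chromosome 11 members was 7.642 in WT mouse 2, whereas the other 5 WT mice lay between 7.551 and 7.582. On the same array the mean over the other autosomes was also the highest of the WT mice, 7.447, and the difference between both means, 0.195, was the highest of the 12 arrays, next to 0.187 in cKO mouse 2. Without WT mouse 2, 116 members were at an unadjusted p under 0.05 in place of 85, 75 of them higher in cKO, and the share over all probe sets was 7.99% in place of 5.18%.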

How the results depend on the processing

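The count of members at an adjusted p under 0.05 stayed at 0 under all 20 alternatives run with limma, beside 85 at an unadjusted p under 0.05. That count of 85 lay between 53 (without cKO mouse 1) and 116 (without WT mouse 2) when 1 mouse was left out, and was 55 without cKO mouse 5. In this order the shares were 3.26%, 7.13% and 3.38% of members, beside 3.90%, 7.99% and 4.17% of all probe sets. Those higher in cKO numbered 22 (without cKO mouse 5) to 75 (without WT mouse 2), and 25 without cKO mouse 1; those lower numbered 28 to 51, and 26 of the 1175 members left when dim probe sets were dropped. By direction, the shares over all probe sets were not computed under these settings. The rank of chromosome 11 among the 19 autosomes lay between 6 and 19 over all settings. With 5 mice in a group, 10 to 15 members did not overlap between genotypes, with 15 without WT mouse 6, 14 without cKO mouse 2 or 3 and 13 without WT mouse 2; fewer values make overlap rarer. For non-overlap with an array left out, the share over all probe sets was not computed. At 1.5-fold in place of 2-fold, 11 members combined the difference with an unadjusted p under 0.05 (0.677%, beside 0.802% of all probe sets). The median log2 fold change was 0.015 with median centring in place of -0.01, and that of all probe sets was then 0.02 in place of -0.01, so the sign of this median rests on the scaling. The ratio of variances, cKO over WT, lay between 0.510 (without WT mouse 4) and 0.664 (without WT mouse 3). TC1100003758 had a log2 fold change of -0.91 to -0.76 and an adjusted p of 0.0546 (quantile normalization) to 0.640 (without cKO mouse 5) over 19 alternatives, below the threshold in none; all 95 values computed for it, the other 3 members described singly and *Slc2a1* kept direction and side of the threshold. Replicate numbers were not treated as pairs. Over the members, deviations of same-numbered mice correlated between -0.14 and 0.25, and 0 of 6 mice correlated best with its own number. So few correlations cannot exclude a pairing. With the replicate number as a block in limma, 5.23% of members were at an unadjusted p under 0.05, as without it, and 6.14% of all probe sets were. TC1100003758 then had an adjusted p of 0.297. Window 14 ranked 1 to 3 from the lowest under every setting in which its 100 members were kept. No source used here pairs the chromosome 11 members with genes or positions, the place of *Krt19* is an estimate, and 6 mice per genotype limit what differences can be seen.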
